A study of Mus musculus with 8 samples.

Results

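The genes described here are 10 genes for secreted proteins that carry or restrain Wnt signals, namely the ligands Wnt3, Wnt5a, Wnt7a, Wnt7b and Wnt8a and the antagonists Dkk1, Dkk2, Dkk3, Sfrp1 and Sfrp2. They were matched by gene symbol among the 20278 genes listed in any sample. RNA was sequenced from N33, an embryonic stem cell (ESC) line whose strain is C57BL/6 in the sample labels and C57BL/6J in the study's methods, in 4 culture conditions with 2 replicates each. The study asked how feeder cells and 2i inhibitors act on the maintenance of telomeres in ESCs. In −F, cells grew on gelatin in serum. In F, they grew in serum on feeders, which are embryonic mouse fibroblasts made unable to divide by mitomycin C. F2i was the feeder and serum culture with 2i added, at doses not given in the sources used here. NB2i held neither feeders nor serum, and cells grew in N2B27, a defined medium, on poly-L-ornithine and laminin with the GSK3β inhibitor CHIR99021 at 3 µM and the Mek inhibitor PD0325901 at 1 µM. All conditions contained LIF at 1000 U/ml, and the 3 serum conditions contained 20% fetal bovine serum. All samples came from this single cell line. The treatment protocol in the labels has cells taken off the feeders by differing adherence, a step that the study's account of the RNA-seq does not repeat.

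Wnt proteins are lipid-modified ligands that bind Frizzled receptors. With the co-receptors Lrp5 and Lrp6, they stop GSK3 from marking beta-catenin for destruction, whereas some ligands act mostly without beta-catenin. Sfrp proteins carry a Frizzled-like domain and can bind Wnt ligands outside the cell, and Dkk1 and Dkk2 bind the Lrp co-receptors. In mouse ESCs, Wnt signals and chemical inhibition of GSK3 are both known to favor self-renewal, so that CHIR99021 acts below the level at which these ligands and antagonists work.

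Upstream sequence was at hand for 5 of the 10 genes, Sfrp2, Dkk2, Wnt7a, Wnt3 and Dkk1, as the 250 bases before the RefSeq start of each gene on GRCm38.p6, the assembly known as mm10. Those of Dkk2 and Sfrp2 are shown because these antagonists moved in opposite directions when 2i was added. Dkk2 is the plus strand of chr3:132085042-132085291 and Sfrp2 the plus strand of chr3:83766071-83766320. For Dkk1, only the 26 bases on the minus strand of chr19:30549588-30549613 are shown, which span its matches to a motif. Capitals mark matches to CTTTG followed by AA, AT, TA or TT, which are forms of the core bound by Tcf and Lef factors and were searched on both strands.
Dkk1: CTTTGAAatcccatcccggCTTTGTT
Dkk2: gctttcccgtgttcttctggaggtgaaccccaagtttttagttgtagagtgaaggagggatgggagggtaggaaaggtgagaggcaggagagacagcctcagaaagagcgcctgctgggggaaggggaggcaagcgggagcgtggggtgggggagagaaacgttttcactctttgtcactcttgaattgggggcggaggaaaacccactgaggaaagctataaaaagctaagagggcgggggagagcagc
Sfrp2: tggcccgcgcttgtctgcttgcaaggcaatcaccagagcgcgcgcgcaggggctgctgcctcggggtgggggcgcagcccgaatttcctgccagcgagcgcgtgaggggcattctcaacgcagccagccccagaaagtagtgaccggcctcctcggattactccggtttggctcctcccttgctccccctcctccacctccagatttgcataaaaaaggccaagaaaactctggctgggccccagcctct
Dkk1 held 2 matches that do not overlap, CTTTGAA with its first base 117 bases before the RefSeq start and CTTTGTT at 98 bases. The GENCODE start of Dkk1 lies farther out, so that both matches and 169 of the 250 bases fall in its annotated UTR, as do 25 bases of the Wnt3 window and 10 of the Wnt7a window. No such letters were found in this window in Dkk2, Sfrp2, Wnt7a or Wnt3. Of 32851 upstream windows of the same length, 14.8% held at least 1 match. The G and C content of these windows was 60.8% for Dkk1, 55.6% for Dkk2, 63.6% for Sfrp2, 68% for Wnt3 and 77.6% for Wnt7a, against a median of 52.4% over all windows.

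Sfrp1 was the most abundant of the 10 genes in every sample and was higher in each step from −F to F, F2i and NB2i. Of the 5 ligands described here, Wnt7b was the most abundant in every sample, and it was lower along the same steps. Wnt5a and Dkk2 were highest in the feeder cultures and near 0 in NB2i. Levels are given as FPKM, a gene's estimated reads scaled to transcript length and to the depth of the sample, which allows comparison between genes. The samples held between 20129641 and 20664488 expected counts, which are RSEM's estimates of reads per gene. The files list only genes with an estimate above 0, so a gene not listed in a sample was taken as 0.

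**Figure D1:**
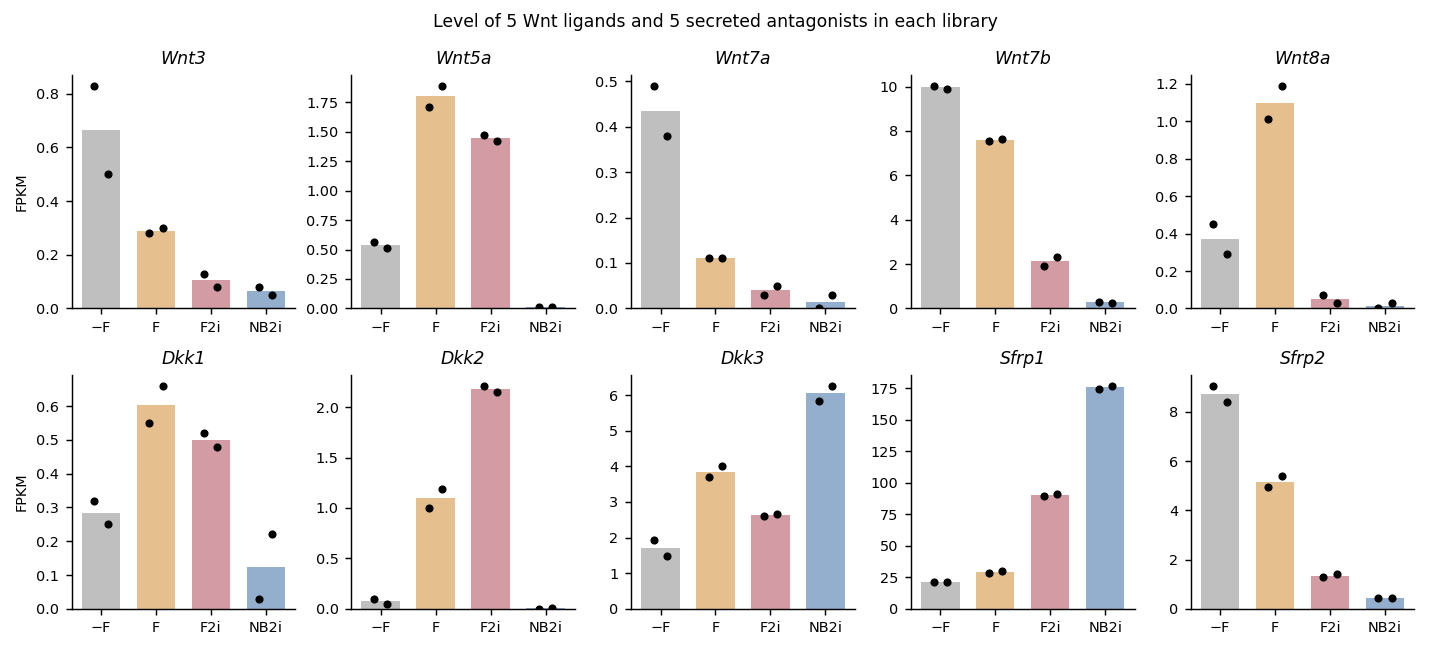
Level of each of the 10 genes in the 4 conditions, in FPKM on a linear axis that starts at 0 and has its own range in each panel. Bars show the mean of the 2 replicates and points the replicates. Sfrp1 was highest in NB2i at 174.48 and 176.73 FPKM, whereas Wnt7b was highest in −F at 10.04 and 9.88 FPKM.

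Sfrp1 (Entrez 20377, mm10 chromosome 8, 23411502 to 23449632) encodes a secreted Frizzled-related protein. It had 21.04 and 21.45 FPKM in −F, 28.39 and 30.01 in F, 89.11 and 91.15 in F2i, and 174.48 and 176.73 in NB2i. The replicates of each condition lay close together and no conditions overlapped. Means were 21.24 ± 0.29, 29.2 ± 1.1, 90.13 ± 1.4 and 175.6 ± 1.6 FPKM (SD, n = 2 each) in that order. In edgeR's quasi-likelihood fit, with p-values adjusted by Benjamini and Hochberg's method over 15287 genes, the difference between F and −F was 0.48 on the log2 scale (SE 0.047, adjusted p = 4.3e-08), which was less than 2-fold. It rose 3.17-fold from F to F2i (log2 1.66, SE 0.044, edgeR adjusted p = 4.4e-18). From F2i to NB2i the ratio was 1.96 (log2 0.97, SE 0.041, edgeR adjusted p = 8.8e-15), just short of 2-fold. NB2i and −F, the conditions without feeders, differed 8.66-fold (log2 3.11, edgeR adjusted p = 1.7e-22). A gene is here said to have risen, fallen or been called only where its adjusted p was under 0.05 and its change at least 2-fold.

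Sfrp2 (Entrez 20319, chromosome 3, 83766321 to 83774316), a second Frizzled-related antagonist, had the opposite order of conditions. It had 9.05 and 8.39 FPKM in −F, 4.94 and 5.38 in F, 1.27 and 1.40 in F2i, and 0.44 in both NB2i replicates. Each condition was lower than the one before it, without overlap. The difference from −F to F was −0.73 on the log2 scale (SE 0.096, edgeR adjusted p = 2.6e-06) and did not reach 2-fold. It then fell by 1.91 from F to F2i (SE 0.135, edgeR adjusted p = 8.9e-11) and by 1.60 from F2i to NB2i (SE 0.229, edgeR adjusted p = 3.2e-06). Between NB2i and −F the difference was 18.9-fold (log2 −4.24, edgeR adjusted p = 3.1e-16). In NB2i, Sfrp1 alone made up 96.5% and 96.2% of the summed FPKM of the 5 antagonists, against 64.8% and 67.8% in −F.

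Dkk3 (Entrez 50781, chromosome 7, 112116017 to 112159057) encodes the divergent member of the Dickkopf family. It had 1.94 and 1.48 FPKM in −F, 3.71 and 4 in F, 2.60 and 2.67 in F2i, and 5.84 and 6.26 in NB2i. NB2i was highest, F next, then F2i and −F, and no conditions overlapped. It rose from −F to F (log2 1.20, SE 0.117, edgeR adjusted p = 4.0e-08) and from F2i to NB2i (log2 1.20, SE 0.099, edgeR adjusted p = 8.1e-10). From F to F2i the difference was −0.51 (SE 0.107, edgeR adjusted p = 3.8e-04), short of 2-fold. Sfrp1 and Dkk3 were the only antagonists of the 5 that were higher in NB2i than in −F, Dkk3 by 1.89 on the log2 scale (SE 0.108, edgeR adjusted p = 7.3e-13).

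Dkk2 (Entrez 56811, chromosome 3, 132085292 to 132180304) encodes a ligand of the Lrp co-receptors that can block or, in some settings, stimulate the pathway. It had 0.10 and 0.05 FPKM in −F, 1.00 and 1.19 in F, 2.21 and 2.15 in F2i, and was at 0 and 0.01 in NB2i. The feeder cultures stood apart from both conditions without feeders. It rose 15.1-fold from −F to F (log2 3.92, SE 0.301, edgeR adjusted p = 1.7e-09) and by 1.03 on the log2 scale from F to F2i (SE 0.154, edgeR adjusted p = 9.4e-06). Without F replicate 1 the latter value was 0.91, under 2-fold (edgeR adjusted p = 0.00036). In NB2i the 2 samples held an expected count of 0 and 0.39, which rounds to 0. Against a floor of 3 counts over the group, Dkk2 was at least 111-fold lower in NB2i than in F2i, where the summed count was 329, and at least 3.53-fold lower than in −F, where it was 11.

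Dkk1 (Entrez 13380, chromosome 19, 30545863 to 30549665) encodes the canonical Lrp-binding inhibitor and is itself a known target of beta-catenin. It had 0.32 and 0.25 FPKM in −F, 0.55 and 0.66 in F, 0.52 and 0.48 in F2i, and 0.03 and 0.22 in NB2i. The NB2i replicates differed widely, with expected counts of 1.23 and 10.37. It was higher in F than in −F by 1.10 on the log2 scale (SE 0.403, edgeR adjusted p = 0.034). This call was lost when any 1 of the 4 samples was left out (edgeR adjusted p from 0.055 to 0.16), without the filter on low counts (0.091) and with DESeq2 (0.18). From F2i to NB2i it fell by 2.03 (SE 0.507, edgeR adjusted p = 0.0015), and the log2 value was −1.18 without NB2i replicate 1 and −4.35 without replicate 2. Between NB2i and −F the difference of −1.17 did not pass (SE 0.572, edgeR adjusted p = 0.072) and became −3.48 without NB2i replicate 2 (edgeR adjusted p = 0.0022). F and F2i were not separated (log2 −0.24, SE 0.36, edgeR adjusted p = 0.6).

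Wnt7b (Entrez 22422, chromosome 15, 85535437 to 85582473), a ligand that can signal through beta-catenin, had 10.04 and 9.88 FPKM in −F, 7.53 and 7.64 in F, 1.93 and 2.31 in F2i, and 0.29 and 0.26 in NB2i. All replicates of a condition were below all those of the condition before it. From −F to F the difference was −0.37 on the log2 scale (SE 0.07, edgeR adjusted p = 2.2e-04), which was less than 2-fold. It fell by 1.80 from F to F2i (SE 0.091, edgeR adjusted p = 3.0e-13) and by 2.92 from F2i to NB2i (SE 0.18, edgeR adjusted p = 5.7e-12). NB2i was 34.1-fold below −F (log2 −5.09, SE 0.131, edgeR adjusted p = 6.9e-19). Wnt7b made up 81.2% and 85.5% of the summed ligand FPKM in −F and 53.2% and 59.4% in F2i.

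Wnt5a (Entrez 22418, chromosome 14, 28504750 to 28527448), a ligand known mostly for signals without beta-catenin and for expression in connective tissue, had 0.56 and 0.51 FPKM in −F, 1.71 and 1.89 in F, 1.47 and 1.42 in F2i, and 0.01 in both NB2i replicates. Both feeder cultures were above −F, and NB2i was near 0. It rose from −F to F by 1.83 on the log2 scale (SE 0.166, edgeR adjusted p = 1.4e-08). F and F2i did not differ past the threshold (log2 −0.24, SE 0.137, edgeR adjusted p = 0.14). NB2i held 1 count in each sample, 2 in all against 234 in F2i and 82 in −F. The ratio of F2i to NB2i was 119 (95% exact counting interval 32.4 to 984), and that of −F to NB2i was 39.4 (10.6 to 331). These intervals cover counting error only. RSEM also gives a mean transcript length, weighted by isoform abundance. For Wnt5a it was 3731 bases in all −F and NB2i samples, 3838.57 and 3908.13 in F, and 3963.99 and 3968.26 in F2i. A longer transcript was thus given weight only in the feeder cultures. The NB2i lengths rest on 1 count each and those of −F on 43 and 39, so absence of the longer transcript there is not shown.

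Wnt8a (Entrez 20890) encodes a ligand of the early embryo's posterior epiblast and primitive streak. It had 0.45 and 0.29 FPKM in −F, 1.01 and 1.19 in F, 0.07 and 0.03 in F2i, and 0 and 0.03 in NB2i. Unlike Wnt5a it was high in F alone. It reached 10 counts in both F samples and 1 −F sample only, so its tests against F are not independent of the filter. Without the filter, the difference from −F to F was 1.57 on the log2 scale (edgeR adjusted p = 0.0059). With the filter, Wnt8a rose from −F to F by 1.58 on the log2 scale (SE 0.356, edgeR adjusted p = 0.0012), a call that DESeq2 did not make (adjusted p = 0.061). Its summed counts were 68 in F and 3 in F2i, a ratio of 21.9 (95% exact counting interval 7.18 to 109, edgeR adjusted p = 7.7e-07). With 3 and 1 counts, F2i and NB2i could not be told apart at this depth, and no fold is given.

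Wnt3 (Entrez 22415, chromosome 11, 103774150 to 103817957) is required for formation of the primitive streak in mouse embryos. It had 0.83 and 0.50 FPKM in −F, 0.28 and 0.30 in F, 0.13 and 0.08 in F2i, and 0.08 and 0.05 in NB2i. The replicates of −F were above all others but were themselves far apart, and those of F2i and NB2i touched. It fell by 1.17 on the log2 scale from −F to F (SE 0.315, edgeR adjusted p = 0.0051), a call lost without −F replicate 1 (−0.76, edgeR adjusted p = 0.14) and with DESeq2 (adjusted p = 0.092). From F to F2i it fell by 1.44 (SE 0.466, edgeR adjusted p = 0.012), a call lost without F2i replicate 2 (−1.14, edgeR adjusted p = 0.1) and with DESeq2 (adjusted p = 0.062). F2i and NB2i did not differ past the threshold (edgeR adjusted p = 0.36). NB2i was below −F (log2 −3.31, SE 0.437, edgeR adjusted p = 6.7e-07).

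Wnt7a (Entrez 22421, chromosome 6, 91363981 to 91411363), the paralog of Wnt7b, had the lowest total count of the 10 genes over all samples and reached 10 only in −F. It had 0.49 and 0.38 FPKM in −F, 0.11 in both F replicates, 0.03 and 0.05 in F2i, and 0 and 0.03 in NB2i. −F was above the other conditions. The fitted difference from −F to F was −1.98 on the log2 scale (SE 0.421, edgeR adjusted p = 7.1e-04). Wnt7a passed the filter through −F alone, the condition where it was high, so its tests against −F are not independent of the filter. Without the filter the value was −1.99 (edgeR adjusted p = 0.005). With either −F replicate left out, too few samples reached 10 counts for Wnt7a to be tested. F and F2i were not separated (edgeR adjusted p = 0.11), nor were F2i and NB2i (edgeR adjusted p = 0.33), where counts of 5 and 2 gave a ratio of 2.53 (95% exact counting interval 0.415 to 26.6). The ratio of −F to NB2i was 27.4 (7.25 to 232). That of F to NB2i was 6.85 (1.57 to 62.1, edgeR adjusted p = 0.01), a call lost without NB2i replicate 1 (edgeR adjusted p = 0.1).

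Summed over the 5 ligands, the level was 12.37 and 11.56 FPKM in −F, 10.64 and 11.13 in F, 3.63 and 3.89 in F2i, and 0.38 in both NB2i samples. The 5 antagonists summed to 32.45 and 31.62, 38.59 and 41.24, 95.71 and 97.85, and 180.79 and 183.66 FPKM in the same order. The ratio of antagonist to ligand FPKM was therefore 2.62 and 2.74 in −F, 3.63 and 3.71 in F, 26.4 and 25.2 in F2i, and 476 and 483 in NB2i. These sums are carried by Sfrp1 and Wnt7b. The 4 antagonists other than Sfrp1 summed to means of 10.79 FPKM in −F, 10.71 in F, 6.65 in F2i and 6.62 in NB2i. Other Wnt ligands and antagonists, given below, are left out of these sums. In NB2i, Wnt5b and Wnt11 had means of 1.22 and 0.865 FPKM, each above the summed 0.38 of the 5 ligands. The remaining tested ligands were each below that sum. Among other antagonists, Notum had a mean of 18.7 FPKM in NB2i. The ratio therefore describes these 10 genes only. The sums count RNA of the genes and not active protein.

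**Figure D2:**
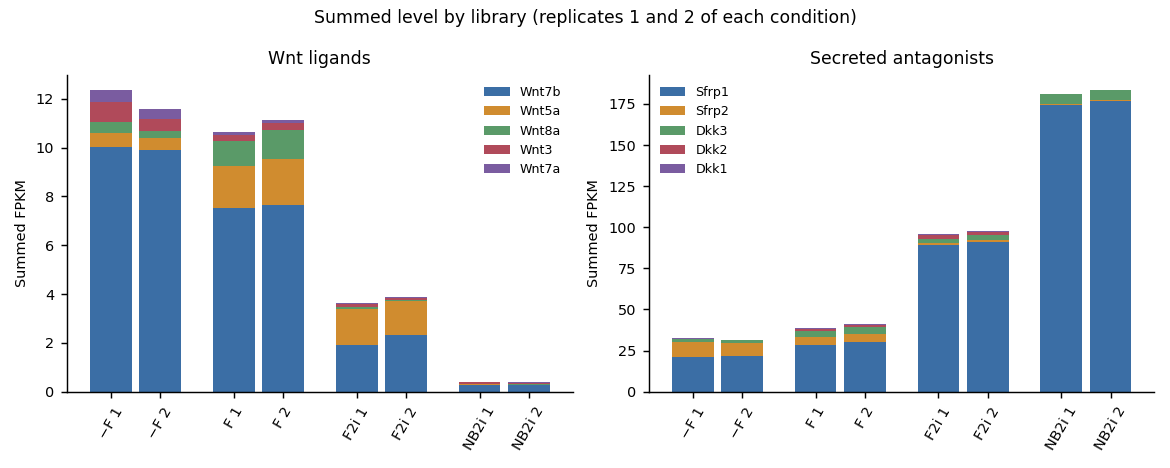
Summed FPKM of the 5 ligands (left) and the 5 antagonists (right) in each sample, with linear axes from 0 that differ between panels. Colors show the share of each gene. Ligands went from 12.37 and 11.56 FPKM in −F to 0.38 in both NB2i samples, whereas antagonists went from 32.45 and 31.62 to 180.79 and 183.66.

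In F against −F, 7 of the 10 genes passed the threshold. Wnt5a, Wnt8a, Dkk1, Dkk2 and Dkk3 rose, whereas Wnt3 and Wnt7a fell, the latter a gene tested through its −F counts only. DESeq2 called 3 genes higher and 1 lower, without Wnt3, Wnt8a and Dkk1. The F samples also held fibroblast RNA, whose part in these differences was not tested. Among all genes tested, 5.59% were called higher and 1.65% lower. The median log2 difference was 0.79 over the 10 genes and 0.0 over all genes.

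In F2i against F, Dkk2 and Sfrp1 rose and Wnt3, Wnt7b, Wnt8a and Sfrp2 fell. This was 2 of 10 higher and 4 of 10 lower, where 6.44% of all genes were called higher and 7.0% lower. No ligand rose in this comparison. The median was −0.95 over the 10 genes.

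In NB2i against F2i, which both contain 2i and differ in feeders, serum, medium and coating, Dkk3 rose, whereas Wnt5a, Wnt7b, Dkk1, Dkk2 and Sfrp2 fell. This was 1 of 10 higher and 5 of 10 lower, against 6.01% and 13.3% of all genes. The median over the 9 genes with a fold, which leaves out Wnt8a and uses ratios and bounds in place of fitted values where counts were 3 or fewer, was −1.6. In NB2i against −F, both free of feeders, Dkk3 and Sfrp1 rose, 7 fell and Dkk1 was not called, where 11.1% of all genes were called higher and 16.1% lower. The 7 included all 5 ligands, of which Wnt7a was tested through its −F counts only. The corresponding median over all 10 genes was −3.78.

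In the remaining comparisons, feeders and 2i or all factors changed together. NB2i against F had Sfrp1 higher and 8 genes lower, against 10% and 17.6% of all genes, and Dkk3 differed by less than 2-fold (log2 0.69, edgeR adjusted p = 8.1e-07). F2i against −F had Wnt5a, Dkk2 and Sfrp1 higher and Wnt3, Wnt7a, Wnt7b, Wnt8a and Sfrp2 lower, against 11.7% and 9.82%. These 6 comparisons share samples with one another and are not separate evidence. All 10 genes passed the filter of at least 10 counts in at least 2 samples. Wnt7a did so through −F only, Wnt3 through −F and F, and Dkk2 through F and F2i. For Wnt8a it was through both F samples and 1 −F sample. Expected counts of Sfrp1, Dkk1, Dkk2 and, in 1 sample, Wnt3 were not whole, so RSEM divided some of their reads between genes or transcripts. The study calls the −F and F replicates biological, but the labels do not say whether replicates were separate cultures. The p-values rest on a spread between these replicates that a single fit shares over all 4 conditions. With 2 samples against 2, exact permutation gives no p below 0.3333, so the calls rest on the fitted model.

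**Figure D3:**
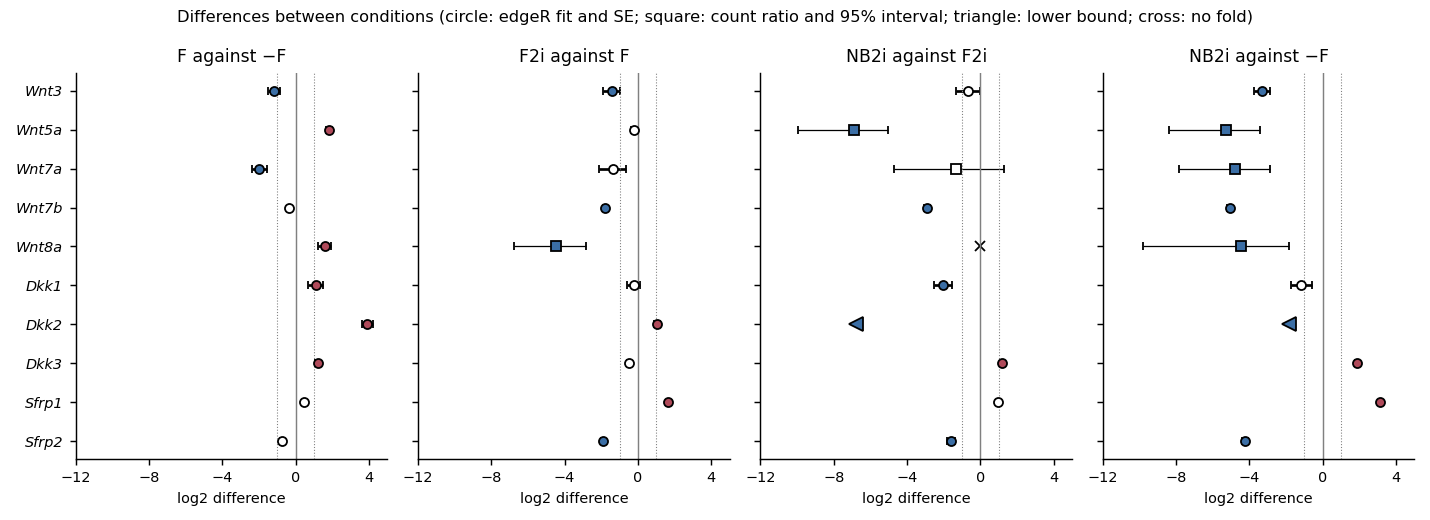
Log2 difference of each of the 10 genes in 4 comparisons, with red fill for genes called higher, blue for lower and white for not called. Circles are edgeR estimates with their standard error, squares are ratios of summed counts with 95% intervals where a group held 1 to 3 counts, triangles are lower bounds on the size of a fall, the cross has no fold, and dotted lines mark 2-fold. In NB2i against −F, all 5 ligands lie to the left, and Dkk3 at 1.89 and Sfrp1 at 3.11 lie to the right.

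RNA of fibroblasts was measurable in the feeder cultures. A list of 18 fibroblast genes, such as Col1a1, Col3a1, Dcn and Postn, summed to 16.51 and 16.04 FPKM in −F, 269.98 and 283.97 in F, 731.09 and 714.56 in F2i, and 6.85 and 6.5 in NB2i. Of these, 16 of 18 were called higher in F than in −F and 0 lower, 7 rose from F to F2i and 0 fell, and all 18 fell from F2i to NB2i. The counts of 0 were also 0 at an unadjusted edgeR p under 0.05 and in DESeq2. Lum was at 0 in both −F samples, and Dcn, Lum and Postn were at 0 in both NB2i samples. Set as a percentage of the F2i mean, the list stood at 2.25% in −F, 38.3% in F and 0.923% in NB2i. Dkk2 stood at 3.44%, 50.2% and 0.229% on this scale, Wnt5a at 37.0%, 125% and 0.692%, and Dkk1 at 57.0%, 121% and 25%. In Sfrp1 the order was another one, with 23.6% in −F, 32.4% in F and 195% in NB2i. The part of fibroblast RNA in the levels of Wnt5a, Dkk1, Dkk2 and Dkk3 in F and F2i was not tested. In the conditions without feeders, −F and NB2i, the fibroblast sum was at most 16.51 FPKM. These 2 conditions still differed, with 11 of the 18 genes called lower and 1 higher in NB2i than in −F. The part of such RNA in the levels of Wnt5a, Sfrp1, Dkk3 and Wnt7b without feeders was not tested either. In bulk RNA, fewer cells of a type and less RNA per cell cannot be told apart.

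**Figure D4:**
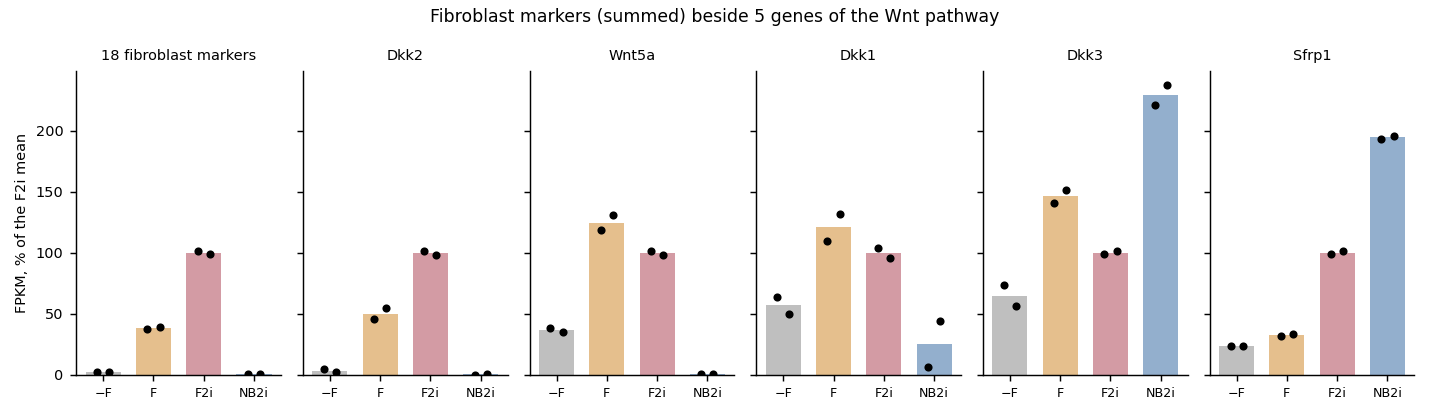
Summed FPKM of 18 fibroblast genes and FPKM of Dkk2, Wnt5a, Dkk1, Dkk3 and Sfrp1, each as a percentage of its own F2i mean on a shared linear axis from 0. Bars are means of 2 replicates and points are replicates. The fibroblast sum and Dkk2 were highest in F2i and under 5% of it in −F and NB2i, whereas Sfrp1 reached 195% in NB2i.

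A list of 5 smooth muscle or myofibroblast genes summed to means of 56.48 FPKM in −F, 194.3 in F, 312.7 in F2i and 2.92 in NB2i. Markers of pluripotent cells, which check the cell type, summed to between 3491.17 and 4237.81 FPKM over the 8 samples. Dppa5a was the largest part of this sum, with means of 1850, 1920, 2280 and 2260 FPKM in −F, F, F2i and NB2i. The sum hides members that moved, such as Klf4 at 54.5, 200, 245 and 145 FPKM and Utf1 at 478, 380, 81.5 and 47.1. Primitive endoderm genes summed to 12.95, 24.74, 12.16 and 23.91 FPKM in the order −F, F, F2i and NB2i. In F against −F, 6 of 8 were called higher by edgeR and 4 by DESeq2, where edgeR called 5.59% of all genes higher. The NB2i sum was mostly Lama1, at 20.8 FPKM, and 5 of the 8 were called lower in NB2i than in F. Primed epiblast genes summed to 171, 86.65, 38.05 and 42.32, carried by Dnmt3b at 138, 62.3, 17.0 and 16.5. Not all 6 followed this order, with Otx2 at 12.9, 5.73, 3.7 and 17.2 and Foxd3 at 2.69, 6.37, 12.9 and 6.23. From F to F2i, 3 of 6 fell and 1, Foxd3, rose, and from F2i to NB2i, 2 fell and 1, Otx2, rose. Trophoblast genes summed to 108.8, 74.61, 39.04 and 76.14, carried by Tfap2c and Krt8. From F2i to NB2i, 3 of 5 tested trophoblast genes fell and 1, Krt8, rose. Primitive streak genes summed to 4.165, 4.59, 6.525 and 10.09 and neural genes to 10.15, 11.72, 8.755 and 6.35. The part of these cell states in the levels of the 10 genes was not tested.

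The rest of the pathway was read from 7 further lists, which were not tested as sets. Their counts stand beside the shares of all genes called higher and lower. These were 5.59% and 1.65% in F against −F and 6.44% and 7.0% in F2i against F. For NB2i they were 6.01% and 13.3% against F2i, and 11.1% and 16.1% against −F. Of 14 other Wnt ligands, 7 had enough counts to be tested. In F against −F and in F2i against F, 0 of 7 were called by edgeR or by DESeq2, whereas 2 and 1 were higher and 0 lower at an unadjusted p under 0.05 in edgeR. Wnt3a, at means of 0.24 and 0.48 FPKM in −F and F, lay just under 2-fold in the former comparison (log2 0.99, edgeR adjusted p = 0.028). From F2i to NB2i, 4 fell and 1 rose. Wnt9a had means of 1.41, 1.25, 1.85 and 0.115 FPKM in −F, F, F2i and NB2i and fell by 3.97 on the log2 scale in that step (edgeR adjusted p = 1.2e-11), whereas Wnt5b, at 0.74, 0.505, 0.48 and 1.22, rose by 1.39 (edgeR adjusted p = 8.6e-05).

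Among 7 tested of 12 other secreted antagonists, 2 rose and 1 fell in F against −F, and 2 rose and 3 fell in NB2i against F2i. Notum, an enzyme that removes the lipid from Wnt proteins and is a target of beta-catenin, had means of 2.21, 3.73, 8.19 and 18.7 FPKM in −F, F, F2i and NB2i. It rose by 1.17 on the log2 scale from F to F2i (edgeR adjusted p = 1.9e-09) and by 3.14 from −F to NB2i (edgeR adjusted p = 1.6e-17), and had the same order of conditions as Sfrp1. Serpinf1, a secreted serpin that can bind Lrp6, had means of 4.2, 18, 25.1 and 4.38 FPKM, rose by 2.12 with feeders (edgeR adjusted p = 2.4e-14) and fell from F2i to NB2i (log2 −2.51). Sfrp4, another Frizzled-related gene, had means of 1.32, 0.54, 0.61 and 1.78 and fell with feeders by 1.27 on the log2 scale (edgeR adjusted p = 6.4e-04). Between the same conditions, Sfrp2 was lower and Sfrp1 higher with feeders, each by less than 2-fold. Dkkl1, a gene related to Dkk3, had means of 2.5, 2.38, 3.81 and 5.62 and was higher in NB2i than in −F by 1.23.

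Porcn, which attaches the lipid that Wnt proteins need for secretion, had means of 9.28, 19.3, 7.17 and 1.83 FPKM. It rose with feeders by 1.24 on the log2 scale (edgeR adjusted p = 8.7e-12), and its value was −1.41 from F to F2i and −1.97 from F2i to NB2i, both called lower. Wls, the carrier of Wnt proteins to the cell surface, had means of 3.37, 5.31, 17.8 and 10 FPKM and rose by 1.78 from F to F2i (edgeR adjusted p = 9.4e-15). The 2 genes of ligand secretion thus moved in opposite directions when 2i was added. Of 4 R-spondins, which amplify Wnt signals, 3 were tested. From F2i to NB2i all 3 fell in edgeR and 2 in DESeq2, where edgeR called 13.3% of all genes lower. Rspo3 and Rspo4 were low, with means of 0.245 and 0.07 FPKM in F2i and 0.07 and 0 in NB2i. Rspo1 had means of 2.98, 2.14, 0.49 and 0.225 FPKM and fell by 2.09 from F to F2i (edgeR adjusted p = 3.9e-07), an order of conditions shared with Sfrp2 and Wnt7b.

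Of 22 receptors and co-receptors, 1 rose in F against −F, where 5.59% of all genes were called higher. In F2i against F, 2 rose and 1 fell, against 6.44% and 7.0% of all genes. In NB2i against F2i, 3 rose and 5 fell, against 6.01% and 13.3%. Fzd10 had means of 2.17, 3.23, 11 and 23.6 FPKM and was higher in NB2i than in −F by 3.51 on the log2 scale (edgeR adjusted p = 4.8e-19). Fzd7 was the most abundant receptor of the list in −F and F, with means of 33.1, 32.6, 17.0 and 7.97, and was below Lrp5, at 32.1, in NB2i. It was at −1.99 in NB2i against −F (edgeR adjusted p = 3.2e-19). Fzd1 at 0.8, 1.41, 1.5 and 0.175 FPKM was, like Wnt5a, highest with feeders. The Dkk co-receptor Kremen2 had means of 1.73, 1.13, 1.46 and 3.83 and rose by 1.4 from F2i to NB2i.

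Among 13 intracellular transducers, Lef1 alone was called in NB2i against F2i, at −3.74, with means of 3.46, 5.75, 3.22 and 0.24 FPKM, and 0 were called by edgeR or DESeq2 with feeders or when 2i was added to feeders. At an unadjusted edgeR p under 0.05, 4 were higher and 3 lower with feeders, and 5 higher and 5 lower with 2i. Ctnnb1, which encodes beta-catenin, had means of 216, 210, 202 and 216 FPKM and differed by 0.07 on the log2 scale between NB2i and −F (edgeR adjusted p = 0.14). Of 9 known targets of beta-catenin, 2 rose with feeders, 5 rose and 0 fell when 2i was added to feeders, and 5 rose and 3 fell in NB2i against −F. In F2i against F, 2 targets were lower at an unadjusted edgeR p under 0.05 and 0 were called lower by DESeq2. Axin2, a negative regulator of the pathway, had means of 2.39, 4.03, 12.8 and 16.1 FPKM and rose by 1.7 from F to F2i (edgeR adjusted p = 5.8e-15). Sp5 had means of 0.43, 1.11, 3.71 and 6.31 and Cdx1 0.955, 4.27, 10.2 and 8.77. Other targets moved otherwise. Lef1, Nkd1 and Lgr5 were called lower in NB2i against −F, at −3.75, −1.79 and −2.13 on the log2 scale, with Lgr5 at means of only 0.05 FPKM in −F and 0.01 in NB2i. Ccnd1 had means of 41.3, 46.1, 26.1 and 33.7 FPKM in −F, F, F2i and NB2i. The summed RNA of the 5 ligands, carried by Wnt7b, was lowest in F2i and NB2i, but Wnt5a was higher in F2i than in −F. A link between ligand RNA and these targets was not tested. Lef1, Lgr5 and Notum stand on 2 of these lists, and T is also a primitive streak gene.

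**Figure D5:**
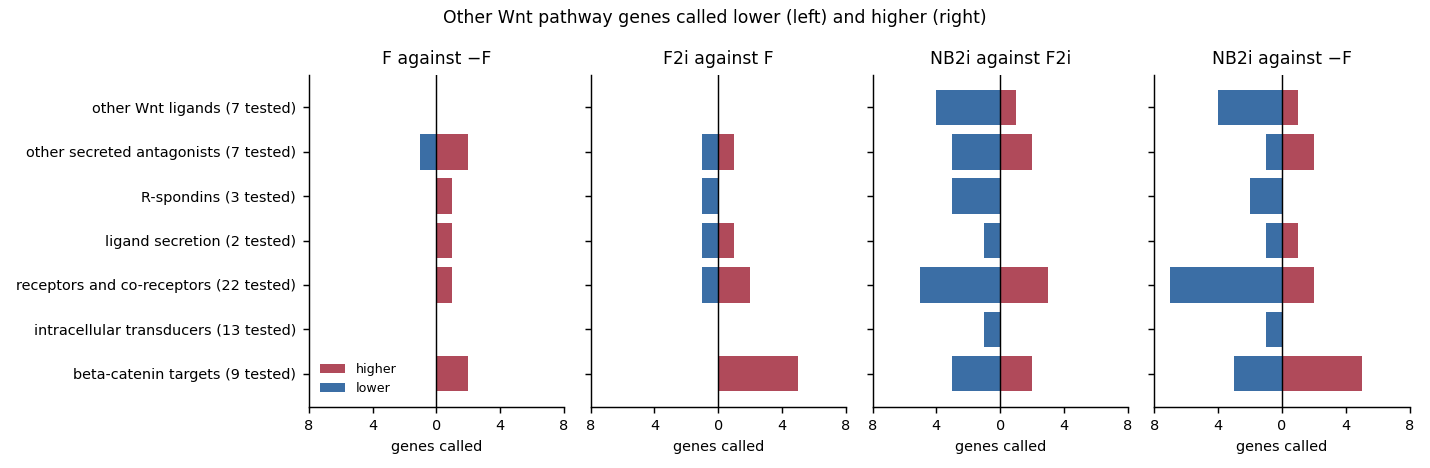
Number of genes of 7 further Wnt pathway lists called lower (blue, to the left) and higher (red, to the right) in 4 comparisons, with the number of genes tested beside each list. Of 9 beta-catenin targets, 5 rose and 0 fell in F2i against F, whereas 4 of 7 other ligands fell and 1 rose in NB2i against F2i.

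For the 7 genes whose mean reached 1 FPKM in some condition, the closest patterns were sought among 13025 genes by the root mean square difference of log2(FPKM + 1) over the 4 condition means, each centered on its own mean. For Sfrp1 they were Gm21283 (0.038), Fzd10 (0.045) and Ly75 (0.071). Those closest to Sfrp2 were Pcsk1n (0.027), Myc (0.036) and Ramp3 (0.06), with Myc at means of 11.2, 7.19, 2.0 and 0.92 FPKM. Wnt7b was nearest to Actn3 (0.068), Cd276 (0.104) and Plcd1 (0.111), and Wnt5a to Bicc1 (0.055), Gm1821 (0.069) and Pnrc1 (0.071). Dkk2 was nearest to Gm13078 (0.039), Abt1 (0.044) and C1qtnf5 (0.052), and Wnt8a to Foxq1 (0.048), Hist1h4d (0.083) and Sts (0.085). Dkk3, for which Gm14305 (0.092), Stmn3 (0.12) and Tnfrsf1b (0.125) were nearest, had the least close neighbors together with Wnt7b. These distances are over 4 points, ignore the level around which a gene varied, and understate fold differences of genes near or under 1 FPKM. Abt1, for one, had means of 8.29, 15.6, 25 and 7.29 FPKM, a smaller fold range than that of Dkk2.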

How the data were processed

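Poly-A RNA of 8 samples was sequenced on a BGISEQ-500 in single-end reads of 50 bases. The authors used Bowtie2 to map reads to mm10 and RSEM to quantify genes, and each sample has its own file. Libraries were pooled for sequencing. Per gene the authors deposited an expected count, the number of reads RSEM estimates for it. It is not normalized, and 29.8% of the values were not whole, because reads shared between genes or transcripts are divided. The authors also deposited FPKM, in which the estimate is scaled to transcript length and sample depth.

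After rounding, expected counts went into edgeR 4.0.16 under R 4.3.3 (glmQLFit, glmQLFTest, TMM factors of 0.9774 to 1.0284). All 8 samples entered one fit with condition as factor. The filter required 10 counts or more in 2 samples or more, which 15287 of 20278 genes met. Benjamini-Hochberg adjustment ran over these genes, and genes past 0.05 and 2-fold were called. The biological coefficient of variation was 3.254%. Conditions and replicate numbers come from the labels, which give no batch. Chi-square per degree of freedom between replicates was 3.712 in −F, 2.383 in F, 2.143 in F2i and 1.885 in NB2i, above sampling noise. Where a group held 1 to 3 counts, the ratio of summed counts has an exact 95% interval, and against 0 a floor of 3 counts over the group was used.

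The 10 genes, the pathway lists and the marker lists were chosen with earlier results of these data known. The pathway genes named are up to 3 per list and comparison that were called with at least 1 FPKM in the higher group, largest first, and the most abundant of each list. Not every gene that met this rule is named, and Wnt3a, Wnt11, Nkd1, Lgr5, Rspo3 and Rspo4 were added after their values were seen. Lists of fibroblast, smooth muscle or myofibroblast, pluripotent, primitive endoderm, primed epiblast, primitive streak, neural and trophoblast markers were summed. Gene coordinates are from GENCODE on mm10, counted from 1. Alternatives were DESeq2 1.42.0, its size factors, no filter, a minimum of 10 counts in each sample, a fit of the compared groups alone, a replicate block, each replicate left out, and limma 3.58.1, applied to log2(FPKM + 1) or to log2(FPKM + 0.1), for genes of at least 0.5 FPKM in 2 samples. The scripts were tested on simulated data.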

Additional observations from a re-analysis of the deposited data

How the results depend on the processing

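Of 658 recomputed differences of the 10 genes, 618 kept direction and side of the threshold, 39 lost their call, 1 gained it and 0 changed direction. With at least 10 counts in every sample, which removes genes silent in any condition, all genes called numbered 393 in F against −F (1107 in the main analysis), 1110 in F2i against F (2055), 1513 in NB2i against F2i (2956), 2597 in NB2i against −F (4152), 2430 in NB2i against F (4218) and 1853 in F2i against −F (3287). On log2(FPKM + 1), which understates changes of low genes, they were 309, 731, 1094, 1983, 1907 and 1452.

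Of the 10 genes, those called higher in F against −F (5) were 3 with DESeq2, 1 with 10 counts in every sample, 0 on log2(FPKM + 1) and 4 whichever replicate was left out. Those lower (2) were 1 with DESeq2, 0 in the other settings named and on log2(FPKM + 0.1), and 0 to 2 with a replicate left out. In F2i against F, the 2 higher became 1 with 10 counts in every sample and on both log2 scales, and 1 to 2 with a replicate left out, and the 4 lower became 2 with 10 counts in every sample and on log2(FPKM + 1). In NB2i against F2i, the 1 higher became 0 on log2(FPKM + 1), and the 5 lower became 2 and 3 under these settings. The 7 lower in NB2i against −F became 2 under both, the 8 lower in NB2i against F became 2 and 5, and for F2i against −F the 3 higher became 1 with 10 counts in every sample and the 5 lower became 2 under both.

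Deviations of same-numbered samples correlated at −0.039 to 0.054 over 12707 genes, so no shift shared by replicate number was seen. Such values cannot tell whether same-numbered samples were handled together. A fit with the replicate block called 1092, 2044, 2943, 4133, 4204 and 3274 genes in these comparisons and left the calls of the 10 genes at the same counts. Depth limits comparisons with groups under 10 counts, which were Wnt7a in F, F2i and NB2i, Wnt3 and Wnt8a in F2i and NB2i, Dkk2 in −F and NB2i, Wnt5a in NB2i, and 1 sample each of Wnt8a in −F and Dkk1 in NB2i.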
